A study of Homo sapiens with 24 samples.

Results

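The semaphorins, plexins and neuropilins were followed in RNA sequencing of 2 human kidney cell lines with KDM5C, YY1 or the pair knocked down. The members were 31 genes chosen by name, 20 semaphorins, 9 plexins and 2 neuropilins, of the 60675 genes in the count tables, and all 31 were found through their Ensembl identifiers. The lines were ACHN, a renal cancer line labelled ccRCC, and HK2, an immortalized proximal tubular epithelial line labelled human kidney. Each line had 4 groups of 3 libraries, 24 in all: shNC, the control hairpin; shKDM5C, knockdown of KDM5C, a histone demethylase; shYY1, knockdown of YY1, a zinc finger transcription factor that can activate or repress; and Dsh, knockdown of both. All groups, shNC included, carried a lentiviral short hairpin and were grown in DMEM with fetal bovine serum. Dsh cells were made by infecting YY1-depleted cells with a second, GFP-marked vector, so the second infection and the joint knockdown cannot be told apart. The study tested more than 1 hairpin per gene, and which of them was sequenced is not given in the sources used here. Neither do the labels say whether repeats came from separate cultures, so p-values measure the spread between these libraries, which may be technical.

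Semaphorins are secreted or membrane-bound ligands first known for steering growing axons and now also for their roles in vessel growth, immunity, epithelial organization and cancer. Plexins are their receptors and act through small GTPases on the cytoskeleton and on adhesion. Neuropilins are co-receptors for most class 3 semaphorins, which are secreted, and also bind members of the VEGF family. Semaphorins of classes 4 to 6 span the membrane and mostly bind plexins directly, and SEMA7A is held by a lipid anchor.

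Library totals were 17910371 to 24272298 counted read pairs in ACHN cells and 15926561 to 18755684 in HK2 cells. One library, HK2 shKDM5C replicate 1, stood apart: its counts differed from those of replicates 2 and 3 by a chi-square per degree of freedom of 128.9 and 123.1, whereas replicates 2 and 3 differed from each other by 3.20. The shKDM5C comparison and the interaction in HK2 cells are therefore given with and without it. KDM5C fell from 70.8 to 43.1 CPM in ACHN shKDM5C and to 40.6 in ACHN Dsh, and from 191 to 56.2 and 68.2 CPM in HK2 cells, where shKDM5C replicate 1 had 34.1 CPM and replicates 2 and 3 averaged 67.3 CPM. YY1 fell from 139 to 76.8 CPM in ACHN shYY1 and to 97.02 in ACHN Dsh, and from 208 to 63.9 and 74.2 CPM in HK2 cells. Here CPM is the counts scaled to a common library size by TMM factors over all 24 libraries. The summed level of 8 kidney epithelium markers was lower in Dsh than in shNC, at 2047 against 2983 CPM in ACHN and 1476 against 2866 CPM in HK2. KRT8, the largest part of the sum in shNC, fell from 1413 to 701 CPM in ACHN and from 1818.5 to 807 CPM in HK2. PAX8 alone of the 8 was higher in Dsh, at 717 against 544 CPM in ACHN and 306 against 253 CPM in HK2. The part of these markers in the Dsh results was not tested. PAX8 (group means of 206 to 717 CPM) and KRT8 (701 to 1982 CPM) were present in both lines, whereas CDH1 went from 47.99 to 5.28 CPM in ACHN Dsh and was at most 3.80 CPM in HK2 groups, and PAX2 was at 1.83 CPM in HK2 Dsh. Of 7 proximal tubule markers, LRP2, CUBN, AQP1, SLC34A1 and ANPEP stayed under 1 CPM in every group, GGT1 was at 70.7 to 279 CPM, and MME was at 10.5 to 32.6 CPM in HK2 groups and at most 1.34 CPM in ACHN groups. Of 3 renal cell carcinoma markers, VIM (643 to 1027 CPM) and NNMT (358 to 492 CPM) were high in the 4 ACHN groups and CA9 was at most 0.125 CPM there. They were not particular to ACHN: HK2 groups had VIM at 430 to 597 CPM and NNMT at 129 to 190 CPM. CA9 was higher in HK2 groups, at 0.695 to 8.66 CPM. Leukocyte markers (PTPRC, CD68, CD3E) stayed under 1 CPM in every group, and endothelial markers (PECAM1, CDH5, VWF) were at most 1.05 CPM. Neural markers were not absent. SYT1 was at 28.8 to 43.1 CPM in HK2 groups and 3.00 to 6.26 CPM in ACHN groups. GFAP was at 5.39 to 15.7 CPM in ACHN groups and at most 0.485 CPM in HK2 groups. RBFOX3 reached 9.40 CPM in ACHN shKDM5C, and SNAP25 reached 8.99 CPM in HK2 Dsh. The summed level of the 4 fibroblast markers, mostly COL1A1, was 76.2 to 616 CPM in ACHN groups and 21.3 to 36.4 CPM in HK2 groups, with COL1A2 at most 0.0385 CPM. PDGFRB was at 7.66 to 34.8 CPM in ACHN groups and at most 1.18 CPM in HK2 groups, and DCN was at most 7.24 CPM. Because these are bulk samples, fewer cells with a transcript and less of it per cell cannot be told apart.

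In the control cells of both lines the repertoire was led by the receptor PLXNB2 and the secreted ligand SEMA3C. Per kilobase of exons, so that genes can be compared, PLXNB2 stood at 59.1 ± 2.57 CPM per kb in ACHN shNC and 77.6 ± 3.71 in HK2 shNC, and SEMA3C at 52.6 ± 1.32 and 57.2 ± 3.28 (SD, n = 3). These levels made up 22.8% and 20.3% of the members' summed level in ACHN shNC and 21.1% and 15.6% in HK2 shNC. Next came SEMA5A in ACHN shNC at 24.4 ± 0.239 CPM per kb, and SEMA3F and PLXND1 in HK2 shNC at 42.1 ± 1.56 and 40.7 ± 2.42, a pair whose SDs overlap. At the other end, SEMA6D had no read pair in shNC of either line, which allows up to 0.0535 CPM in ACHN and 0.0537 CPM in HK2 for the 3 libraries together (a limit of 3 read pairs, for counting error only). PLXNA4 had no read pair in HK2 shNC and 5 in ACHN shNC. SEMA6D and PLXNA4 passed the filter on low counts in none of the comparisons and were not tested.

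**Figure D1:**
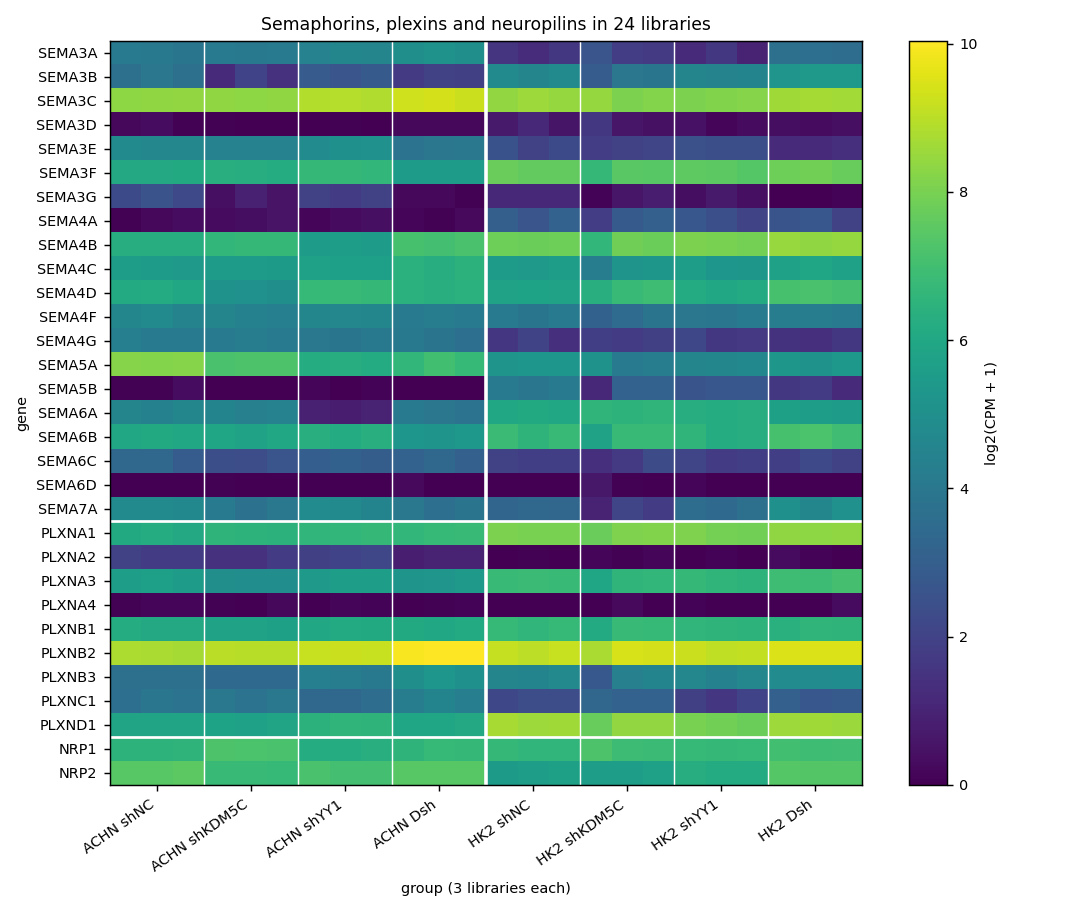
Level of each of the 31 genes (rows) in each of the 24 libraries (columns, 3 per group), as log2(CPM + 1); white lines part the groups and, across, semaphorins, plexins and neuropilins. PLXNB2 had the highest mean of every group, SEMA6D and PLXNA4 were dark throughout, and HK2 shKDM5C replicate 1 differed from its neighbours in rows such as SEMA4B, SEMA5B and PLXNB3.

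The lines differed in most members before any knockdown. Of 28 members tested, 12 were higher in ACHN shNC (background over all genes tested, 38.6%) and 15 were higher in HK2 shNC (background 38%), all with an adjusted p under 0.05 from edgeR (quasi-likelihood F test, Benjamini-Hochberg over all genes). SEMA4C did not pass, with a log2 difference of 0.018 (SE 0.064). In 17 of the 28 the absolute log2 difference was at least 1.5 (background 21.3%). Higher in ACHN were SEMA3A, the repellent ligand bound through NRP1, with a log2 difference of 3.07 (SE 0.16), SEMA5A with 2.99 (SE 0.042), SEMA4G with 2.95 (SE 0.16), SEMA3E, a ligand that binds PLXND1 without a neuropilin, with 2.69 (SE 0.13), and NRP2 with 1.88 (SE 0.05). Higher in HK2 were PLXND1 with -2.80 (SE 0.044), PLXNA1 with -1.93 (SE 0.043), SEMA3F with -1.62 (SE 0.042), SEMA4B with -1.57 (SE 0.04) and SEMA6A with -1.53 (SE 0.067). For PLXNA2, SEMA5B and SEMA4A 1 line was close to 0. PLXNA2 had 147 read pairs in the ACHN shNC libraries and 1 in the HK2 ones, a ratio of 146 (exact 95% interval 25.9 to 5820). This interval and the others given for read-pair ratios cover counting error only, not the spread between libraries. SEMA5B had 894 read pairs in HK2 shNC against 7 in ACHN shNC, and SEMA4A had 384 against 9, ratios of 128 (62.0 to 320.0) and 42.9 (22.3 to 94.4). Handling that differed between the lines cannot be told apart from the line itself.

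**Figure D2:**
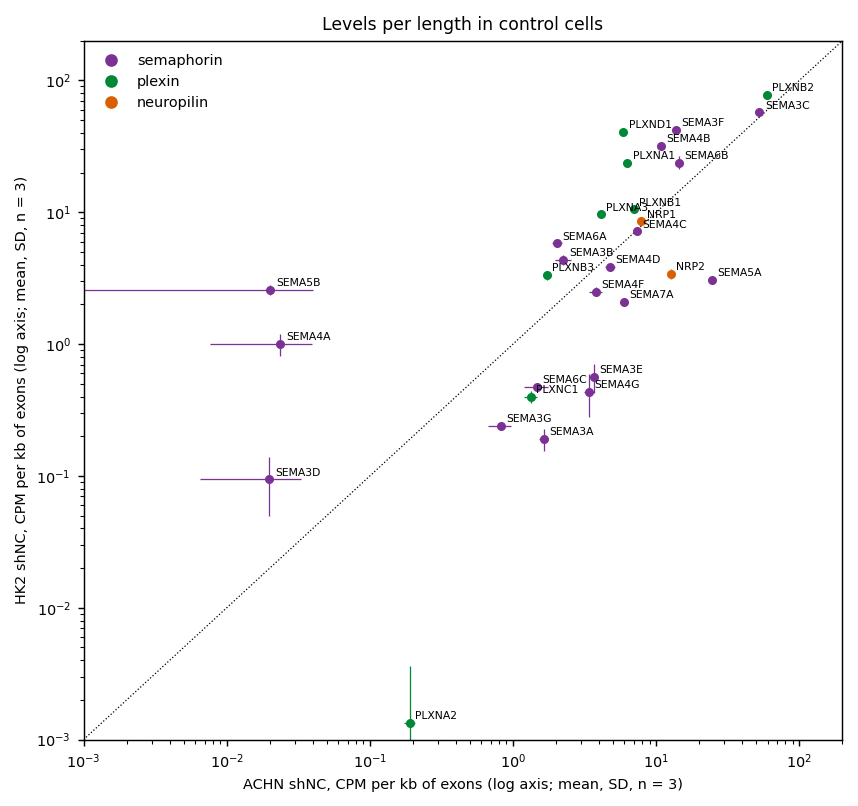
Mean level per kilobase of exons in ACHN shNC (x axis) and HK2 shNC (y axis), both on log axes, with SD bars over 3 libraries; the dotted line marks equal levels. SEMA3A, SEMA5A, NRP2 and PLXNA2 lie below the line, PLXND1, PLXNA1, SEMA3F, SEMA4B and SEMA5B above it; SEMA6D and PLXNA4 had no read pairs in at least 1 line and are not drawn.

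In ACHN cells, knockdown of KDM5C lowered more of these genes than it raised. Of 26 members tested, 12 fell (background 27.7%) and 5 rose (background 28.9%). The median log2 fold change was -0.17 over the members and -0.0070 over all genes tested. The secreted ligands SEMA3G and SEMA3B fell furthest, with log2 fold changes of -2.90 and -2.71, the 2 members past an absolute value of 1.5 (background 3.34%). Of the other class 3 ligands tested, SEMA3E fell by less (-0.26), SEMA3F rose, and SEMA3A and SEMA3C did not pass. SEMA4D, a membrane ligand of PLXNB1, and SEMA5A also fell, at -1.07 and -1.01. The neuropilins went in opposite directions, NRP2 at -0.71 and NRP1 at 0.66. The members that rose were NRP1, SEMA4B (0.40), PLXNA1 (0.35), PLXNB2 (0.22) and SEMA3F (0.17). These background shares are taken over all genes tested, whatever their counts, and values in parentheses beside a gene are log2 fold changes.

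Knockdown of YY1 in ACHN cells moved 20 of 26 members, 9 lower (background 24.5%) and 11 higher (background 24.2%), with a median log2 fold change of -0.030 against -0.0074 over all genes. The membrane ligands SEMA6A and SEMA5A fell furthest, at -4.69 and -2.04, and were the 2 members past 1.5 (background 3.13%). Both neuropilins fell, NRP2 at -0.39 and NRP1 at -0.30. Of 8 receptors tested 4 rose, PLXND1 at 0.65, PLXNB3 at 0.51, PLXNA1 at 0.50 and PLXNB2 at 0.44. PLXNC1 fell (-0.42), and PLXNA2, PLXNA3 and PLXNB1 did not pass. Among ligands, SEMA4D (0.62), SEMA3F (0.58), SEMA3A (0.51) and SEMA3C (0.50) rose.

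With both genes knocked down, 10 of 16 semaphorins tested in ACHN cells fell (background 32%) and 5 rose (background 30.7%). Of 8 plexins 2 fell and 4 rose, beside the same shares, and whether ligands and receptors differed was not tested. Over all 26 members, 12 fell (background 32%) and 10 rose (background 30.7%). SEMA3G (-5.10), SEMA3B (-2.29) and PLXNA2 (-1.50), a receptor for class 3 and class 6 ligands, were past 1.5 (background 8.42%). PLXNB3 (1.49), PLXNB2 (1.26), SEMA3A (1.07), SEMA3C (0.95), SEMA4C (0.88), a ligand of PLXNB2, and SEMA4B (0.86) led the rise. The median log2 fold change was -0.51 over the semaphorins, 0.35 over the plexins and -0.0057 over all genes.

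In HK2 cells, SEMA4D and PLXNC1, the receptor of SEMA7A, were the 2 of 28 members that passed with knockdown of KDM5C, both higher. Neither passed with the replicate block or when any 1 library other than shKDM5C replicate 1 was left out, which gave 0 members each time. The background was 0.668% higher and 0.656% lower with all 3 libraries, and no member passed 1.5 (background 0.501%). SEMA4D had a log2 fold change of 0.93 (SE 0.15, adjusted p = 0.0351) and PLXNC1 of 1.09 (SE 0.19, adjusted p = 0.0469). By edgeR 0 members fell, 4 were lower at an unadjusted p under 0.05, and DESeq2 called 5 members, 2 of them lower. Without replicate 1 of shKDM5C, 10 members were lower (background 10.9%) and 5 higher (background 11.5%). In that fit SEMA7A (-1.65), SEMA5A (-1.15), SEMA5B (-1.02) and SEMA3B (-0.81) fell furthest, and SEMA4D (1.06), PLXNC1 (0.99) and SEMA6A (0.51) rose most. SEMA3C (-0.39), SEMA4F (-0.39), SEMA4C (-0.25), SEMA3F (-0.23), PLXND1 (-0.23) and PLXNA3 (-0.23) were the other members that fell, and PLXNB2 (0.27) and NRP1 (0.23) the others that rose.

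Knockdown of YY1 in HK2 cells lowered 10 of 27 members (background 14.7%) and raised 4 (background 14.3%). SEMA5B, a class 5 ligand hardly present in ACHN cells, fell most, at -1.55, and alone passed 1.5 (background 1.29%). SEMA3G (-1.47), PLXND1 (-0.73), SEMA4A (-0.64) and SEMA5A (-0.64) also fell. NRP2 (0.61), SEMA4D (0.32), SEMA6A (0.23) and SEMA4B (0.21) rose. When all 4 HK2 groups shared a fit, 1 member rose (background 2.16%) and 1 fell (background 3.26%), and without shKDM5C replicate 1 that fit gave 4 (background 13.3%) and 11 (background 14.3%).

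In HK2 cells more members rose than fell with the double knockdown. Of 27 members tested 16 rose (background 25.5%) and 6 fell (background 24.3%), and both neuropilins and 5 of 7 plexins were among those that rose. SEMA3A (2.67), NRP2 (1.78), SEMA7A (1.71) and SEMA4D (1.33) rose most. SEMA3G (-5.52), SEMA5B (-3.04) and SEMA3E (-1.42) fell most. SEMA3A, SEMA3G, SEMA5B, SEMA7A and NRP2 were past 1.5 (background 4.3%). The median was 0.16 over the members and -0.0026 over all genes. With all 4 HK2 groups in the fit, 9 rose (background 11.7%) and 4 fell (background 11.2%), and without shKDM5C replicate 1 that fit gave 16 (background 23.3%) and 6 (background 22.2%).

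**Figure D3:**
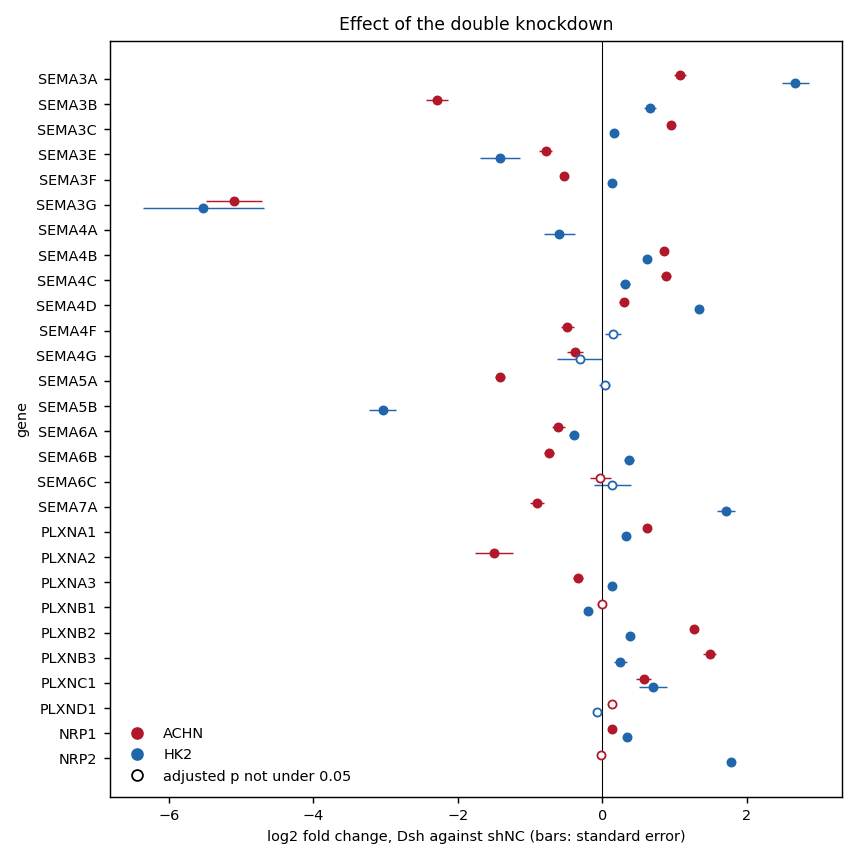
Log2 fold change of Dsh against shNC (x axis, bars are standard errors) for each member tested (y axis), ACHN in red and HK2 in blue; open points did not pass an adjusted p of 0.05. SEMA3G lay furthest left in both lines, and SEMA3B, SEMA7A and SEMA6B had ACHN points left of 0 and HK2 points right of it.

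The effect of Dsh differed between the lines for 21 of 28 members by the interaction of cell line and Dsh over the 12 libraries. It was lower in ACHN than in HK2 for 12 (background 22.7%) and higher for 9 (background 23.3%). Of the 25 members tested in both lines, 18 passed in each of them, 13 in the same direction (background 25.7% of the 14784 genes tested in both) and 5 in opposite directions (background 11.2%). The 5 were SEMA3B, SEMA3F, SEMA6B, SEMA7A and PLXNA3, all lower in ACHN Dsh and higher in HK2 Dsh (background 5.91%), and the difference itself passed for each. The HK2 rise of PLXNA3 was lost in 5 of 14 alternatives and that of SEMA3F in 6. The log2 difference, ACHN minus HK2, was -2.93 (SE 0.17, adjusted p = 2.13e-14) for SEMA3B, -2.60 (SE 0.17, adjusted p = 1.95e-13) for SEMA7A and -1.79 (SE 0.072, adjusted p = 5.19e-18) for NRP2. In the other direction it was 1.26 (SE 0.13, adjusted p = 2.57e-09) for PLXNB3 and 0.90 (SE 0.06, adjusted p = 4.05e-13) for PLXNB2. For SEMA3G, lower in both, the difference was 0.47 (SE 0.87, adjusted p = 0.704), which did not pass. The knockdowns were of unlike depth too: the same test gave 0.71 (SE 0.071) for KDM5C and 0.99 (SE 0.073) for YY1, both weaker reductions in ACHN, and their part in these differences was not tested.

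Among the class 3 ligands, SEMA3G, which binds NRP2, fell in both double knockdowns to a few read pairs. Its level in ACHN cells was 3.72, 4.96 and 3.63 CPM in shNC, 0.325, 0.900 and 0.435 in shKDM5C, 2.94, 2.42 and 2.80 in shYY1 and 0.154, 0.166 and 0.0407 in Dsh. The Dsh libraries held 7 read pairs against 230 in shNC, all Dsh values lying below all the others. The ratio of shNC to Dsh was 36.3 (exact 95% interval 17.4 to 91.4, for counting error only). In HK2 cells the level was 1.15, 1.21 and 1.24 CPM in shNC, 0.0652, 0.521 and 0.764 in shKDM5C, 0.297, 0.648 and 0.347 in shYY1 and 0, 0 and 0.0567 in Dsh, with 67 read pairs in the shNC libraries and 1 in Dsh, a ratio of 61.9 (10.7 to 2483). The fitted log2 fold changes were -5.10 (SE 0.38, adjusted p = 1.32e-09) in ACHN Dsh and -5.52 (SE 0.84, adjusted p = 1.77e-06) in HK2 Dsh. Its fall in HK2 shYY1, -1.47 (SE 0.47, adjusted p = 0.0215), did not pass when any 1 of 5 of the 6 libraries was left out.

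To show the start regions of 3 members that moved strongly, picked after their values were seen, the 250 bases before the RefSeq start (GRCh38.p14) are given 5′ to 3′ in the gene's own direction, with ATGGC or its reverse complement GCCAT, the core of the YY1 motif, in capitals. They are SEMA3G (chr3:52445104-52445353, minus strand), SEMA5A (chr5:9546076-9546325, minus strand) and NRP2 (chr2:205682251-205682500, plus strand).
SEMA3G: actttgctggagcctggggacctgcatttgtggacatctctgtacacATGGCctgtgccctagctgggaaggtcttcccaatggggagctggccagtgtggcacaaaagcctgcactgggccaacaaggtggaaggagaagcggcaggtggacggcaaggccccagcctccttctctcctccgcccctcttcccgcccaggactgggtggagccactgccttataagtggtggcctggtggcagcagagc
SEMA5A: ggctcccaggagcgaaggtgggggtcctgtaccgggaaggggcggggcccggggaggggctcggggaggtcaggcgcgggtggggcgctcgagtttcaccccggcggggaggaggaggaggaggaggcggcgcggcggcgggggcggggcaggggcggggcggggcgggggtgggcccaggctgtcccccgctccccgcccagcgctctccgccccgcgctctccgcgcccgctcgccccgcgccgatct
NRP2: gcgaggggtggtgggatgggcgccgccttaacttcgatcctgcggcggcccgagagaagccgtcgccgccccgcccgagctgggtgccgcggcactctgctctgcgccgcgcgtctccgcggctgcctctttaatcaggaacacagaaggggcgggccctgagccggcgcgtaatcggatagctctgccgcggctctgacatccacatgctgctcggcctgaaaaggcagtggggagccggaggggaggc
The SEMA3G stretch held the core once and the other stretches did not hold it. The longer motif AANATGGC (GCCATNTT on the other strand) was in 0 of 48 promoters of 300 bases (250 before and 50 after the start) that RefSeq gave for 27 of the 31 members, and in 6.58% of the 35116 promoters of all genes. The core was searched after this and stood in 18 of the 48 (37.5%), beside 37.8% of all promoters. Median GC content was 65% in the 48 and 58.7% in all promoters, and its part in these shares was not tested. Some of the 48 belong to the same gene and overlap, as for SEMA3B. SEMA3A, SEMA6A, SEMA6B and NRP1 had no entry. Such letter matches describe the sequence and do not show binding.

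SEMA3B, a neuropilin ligand from the tumour suppressor region of the short arm of chromosome 3 (chr3:50267558-50277546, plus strand, GRCh38), fell in every ACHN knockdown. Its values in ACHN cells were 12.1, 14.8 and 12.1 CPM in shNC, 1.30, 3.04 and 1.69 in shKDM5C, 6.35, 5.22 and 6.10 in shYY1 and 2.26, 2.88 and 2.77 in Dsh. All 9 knockdown libraries lay below the 3 shNC libraries, with log2 fold changes of -2.71 (SE 0.18, adjusted p = 2.19e-12) in shKDM5C and -2.29 (SE 0.15, adjusted p = 1.51e-10) in Dsh. In HK2 cells the values were 26.8, 22.5 and 26.04 CPM in shNC, 6.59, 14.9 and 14.03 in shKDM5C, 22.9, 21.5 and 22.4 in shYY1 and 36.6, 42.3 and 40.5 in Dsh. There the Dsh libraries were the highest and the shKDM5C libraries the lowest, without overlap between these groups and shNC. The HK2 Dsh change was 0.66 (SE 0.086, adjusted p = 1.14e-07) and the shKDM5C change was -1.06 (SE 0.27, adjusted p = 0.146), or -0.81 (SE 0.11, adjusted p = 6.76e-06) without its replicate 1.

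SEMA3A had its highest levels in the double knockdown of each line. ACHN cells gave 16.3, 15.6 and 14.02 CPM in shNC, 16.03, 15.9 and 16.98 in shKDM5C, 20.7, 23.2 and 22.6 in shYY1 and 31.03, 34.4 and 30.6 in Dsh, the 3 Dsh values standing above all others. HK2 cells started lower and gave 1.86, 1.43 and 2.11 CPM in shNC, 5.28, 2.50 and 2.24 in shKDM5C, 1.31, 2.06 and 0.982 in shYY1 and 12.03, 11.7 and 10.9 in Dsh, again with Dsh above every other library. The log2 fold changes in Dsh were 1.07 (SE 0.084, adjusted p = 2.52e-09) in ACHN and 2.67 (SE 0.19, adjusted p = 3.55e-13) in HK2.

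SEMA3E, the ligand of PLXND1, fell with Dsh in both lines. In ACHN cells it measured 26.8, 24.1 and 23.8 CPM in shNC, 20.8, 20.9 and 21.2 in shKDM5C, 27.6, 32.05 and 32.6 in shYY1 and 13.02, 14.6 and 15.3 in Dsh, and in HK2 cells 4.81, 2.87 and 3.81 CPM in shNC, 2.54, 2.92 and 3.33 in shKDM5C, 4.63, 4.30 and 4.33 in shYY1 and 1.30, 1.35 and 1.64 in Dsh. Dsh values were below all others in both lines, with log2 fold changes of -0.79 (SE 0.09, adjusted p = 3.99e-07) and -1.42 (SE 0.28, adjusted p = 9.88e-05). SEMA3F, a ligand of NRP2 that lies near SEMA3B (chr3:50155045-50189075, plus strand), measured 66.1, 66.4 and 67.4 CPM in shNC, 77.9, 76.4 and 73.3 in shKDM5C, 101, 103 and 99.9 in shYY1 and 45.4, 46.01 and 45.6 in Dsh in ACHN cells. It was above shNC in both single knockdowns and below it in Dsh, where the change was -0.54 (SE 0.054, adjusted p = 6.29e-08). In HK2 cells SEMA3F measured 212, 198 and 199.5 CPM in shNC, 102, 179 and 169.8 in shKDM5C, 188, 179 and 168 in shYY1 and 224, 237 and 208 in Dsh, and the Dsh change of 0.13 (SE 0.049, adjusted p = 0.0267) did not pass in 4 of the 6 fits that left out 1 library. SEMA3C, the ligand with the highest level per kilobase in shNC cells, rose from 329.5 ± 8.30 CPM to 632 ± 32.2 in ACHN Dsh and from 358 ± 20.6 to 402 ± 12.4 in HK2 Dsh (SD, n = 3). SEMA3D averaged under 1 CPM in every group, from 0.0180 CPM in ACHN shYY1 to 0.997 in HK2 shKDM5C, where replicate 1 held 32 of 49 read pairs.

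The class 4 ligands SEMA4B and SEMA4D rose with Dsh in both lines. SEMA4B gave 75.8, 75.8 and 76.2 CPM in shNC, 98.1, 103 and 102 in shKDM5C, 45.4, 48.9 and 46.1 in shYY1 and 139, 130.1 and 141 in Dsh in ACHN cells, with shYY1 below shNC and Dsh above it. In HK2 cells SEMA4B gave 227, 217 and 229 CPM in shNC, 98.2, 229.9 and 221 in shKDM5C, 269, 260.4 and 248 in shYY1 and 357, 334 and 348 in Dsh, where shKDM5C replicate 1 was less than any other library and Dsh was highest. The Dsh changes were 0.86 (SE 0.049, adjusted p = 2.35e-11) and 0.62 (SE 0.043, adjusted p = 1.92e-13). SEMA4D, also known as CD100 and a ligand of PLXNB1, gave 68.9, 72.1 and 61.3 CPM in shNC, 33.8, 32.4 and 31.2 in shKDM5C, 106, 106 and 103 in shYY1 and 84.4, 79.1 and 83.5 in Dsh in ACHN cells, with shKDM5C lowest and shYY1 highest. For HK2 cells it gave 53.7, 55.6 and 54.6 CPM in shNC, 78.3, 109 and 120.5 in shKDM5C, 71.9, 63.99 and 70.1 in shYY1 and 138, 142 and 134 in Dsh, all knockdown libraries lying above shNC. Knockdown of KDM5C thus went with a log2 fold change of -1.07 (SE 0.059, adjusted p = 5.85e-14) in ACHN and, without replicate 1, 1.06 (SE 0.06, adjusted p = 1.90e-12) in HK2; the difference between the lines in that contrast was not tested. SEMA4C rose with Dsh by 0.88 in ACHN and 0.31 in HK2. SEMA4F fell in ACHN Dsh (-0.49) and was at 0.14 in HK2 Dsh, which did not pass. SEMA4G fell in ACHN Dsh (-0.38), a change that did not pass without ACHN Dsh replicate 3. Of the exon bases of SEMA4G, 22.3% are shared with MRPL43 on the opposite strand, and strand was not used in counting. SEMA4A, at most 0.311 CPM in ACHN groups, fell in HK2 Dsh (-0.60, SE 0.21, adjusted p = 0.0208). The Dsh range overlapped the shNC range, as the range of HK2 shYY1 did.

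SEMA5A, a class 5 ligand with thrombospondin repeats, was lower in every ACHN knockdown. It measured 298, 292 and 296 CPM in shNC, 143, 151 and 149.6 in shKDM5C, 72.4, 74.7 and 71.9 in shYY1 and 99.4, 126 and 105 in Dsh, the shNC libraries standing far above the rest and shYY1 lowest. Its log2 fold changes were -1.01 (SE 0.033, adjusted p = 1.38e-18) in shKDM5C, -2.04 (SE 0.034, adjusted p = 9.80e-32) in shYY1 and -1.42 (SE 0.063, adjusted p = 7.80e-13) in Dsh. In HK2 cells it measured 35.8, 37.96 and 37.3 CPM in shNC, 34.04, 16.2 and 17.5 in shKDM5C, 22.98, 23.5 and 25.1 in shYY1 and 38.9, 34.6 and 39.97 in Dsh, with shYY1 below shNC, Dsh overlapping shNC, and shKDM5C replicate 1 close to the shNC range while replicates 2 and 3 were lowest. The shKDM5C change was -0.66 (SE 0.32, adjusted p = 0.371) with and -1.15 (SE 0.094, adjusted p = 1.28e-09) without that library, and the Dsh change was 0.03 (SE 0.076), which did not pass. SEMA5B, its paralog, measured 16.6, 14.4 and 16.98 CPM in shNC, 1.17, 7.81 and 8.02 in shKDM5C, 5.17, 5.59 and 5.60 in shYY1 and 2.06, 2.47 and 1.30 in Dsh in HK2 cells. All knockdown libraries were below shNC and Dsh was below shYY1, with changes of -1.55 (SE 0.13, adjusted p = 1.13e-08) in shYY1 and -3.04 (SE 0.18, adjusted p = 6.66e-15) in Dsh. In ACHN cells SEMA5B had 7 read pairs in shNC and none in Dsh, which allows up to 0.0484 CPM.

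SEMA6A (chr5:116443616-116574934, minus strand), a membrane ligand of PLXNA2 and PLXNA4, fell below 1 CPM in ACHN shYY1 but not in ACHN Dsh. In ACHN cells its level was 22.7, 20.4 and 23.7 CPM in shNC, 21.9, 19.6 and 20.8 in shKDM5C, 0.907, 0.754 and 0.952 in shYY1 and 16.1, 14.7 and 13 in Dsh. The shYY1 libraries held 14 to 17 read pairs each and lay below all others, and Dsh lay between them and shNC. The changes were -4.69 (SE 0.15, adjusted p = 6.16e-24) in shYY1 and -0.61 (SE 0.10, adjusted p = 2.17e-05) in Dsh. In HK2 cells its level was 62.4, 67.4 and 61.8 CPM in shNC, 95.1, 88.7 and 94.6 in shKDM5C, 76.1, 74.3 and 74.98 in shYY1 and 51.1, 48.1 and 46.4 in Dsh, with shYY1 and shKDM5C above shNC and Dsh below it. There the shYY1 change was 0.23 (SE 0.061, adjusted p = 0.00601). SEMA6C measured 9.39, 9.55 and 6.66 CPM in shNC, 4.33, 4.16 and 5.28 in shKDM5C, 7.04, 7.76 and 6.77 in shYY1 and 7.98, 9.58 and 7.54 in Dsh in ACHN cells and 2.95, 2.65 and 2.62 CPM in shNC, 1.57, 2.29 and 3.88 in shKDM5C, 3.33, 2.47 and 2.66 in shYY1 and 2.60, 3.64 and 2.83 in Dsh in HK2 cells. It fell in ACHN shKDM5C, at -0.91 (SE 0.15, adjusted p = 1.47e-05), below the range of the other ACHN groups. SEMA6B, a membrane ligand of the same class, measured 62.1, 68.1 and 61.3 CPM in shNC, 60.7, 54.4 and 62.3 in shKDM5C, 78.4, 70.7 and 76.9 in shYY1 and 37.9, 35.5 and 40.4 in Dsh in ACHN cells, with Dsh below all others. In HK2 cells SEMA6B measured 115, 91.97 and 108 CPM in shNC, 54.6, 109 and 111 in shKDM5C, 94.4, 72.4 and 76.4 in shYY1 and 137, 147 and 123 in Dsh, with Dsh above all others and shKDM5C replicate 1 lowest. Its Dsh changes were -0.74 (SE 0.065, adjusted p = 1.16e-08) in ACHN and 0.37 (SE 0.065, adjusted p = 1.85e-05) in HK2, the latter lost with all 4 HK2 groups in the fit. SEMA6D was tested in none of the comparisons.

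SEMA7A (chr15:74409289-74434467, minus strand), the lipid-anchored ligand of PLXNC1 and of integrins, fell in ACHN Dsh and rose in HK2 Dsh. ACHN cells gave 26.3, 25.9 and 24.7 CPM in shNC, 15.98, 12.8 and 15.3 in shKDM5C, 27.4, 26.8 and 22.1 in shYY1 and 15.4, 11.7 and 13.7 in Dsh, in which shKDM5C and Dsh overlapped each other and lay below shNC. HK2 cells gave 8.80, 9.10 and 9.06 CPM in shNC, 0.978, 3.28 and 2.46 in shKDM5C, 10.9, 9.77 and 12.1 in shYY1 and 32.2, 23.5 and 32.9 in Dsh. There every shKDM5C library was below shNC and every Dsh library above it. The Dsh changes were -0.90 (SE 0.10, adjusted p = 1.45e-07) in ACHN and 1.71 (SE 0.12, adjusted p = 3.34e-13) in HK2, and the HK2 shKDM5C change was -1.97 (SE 0.35, adjusted p = 0.0524) with all libraries and -1.65 (SE 0.19, adjusted p = 4.48e-07) without replicate 1.

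**Figure D4:**
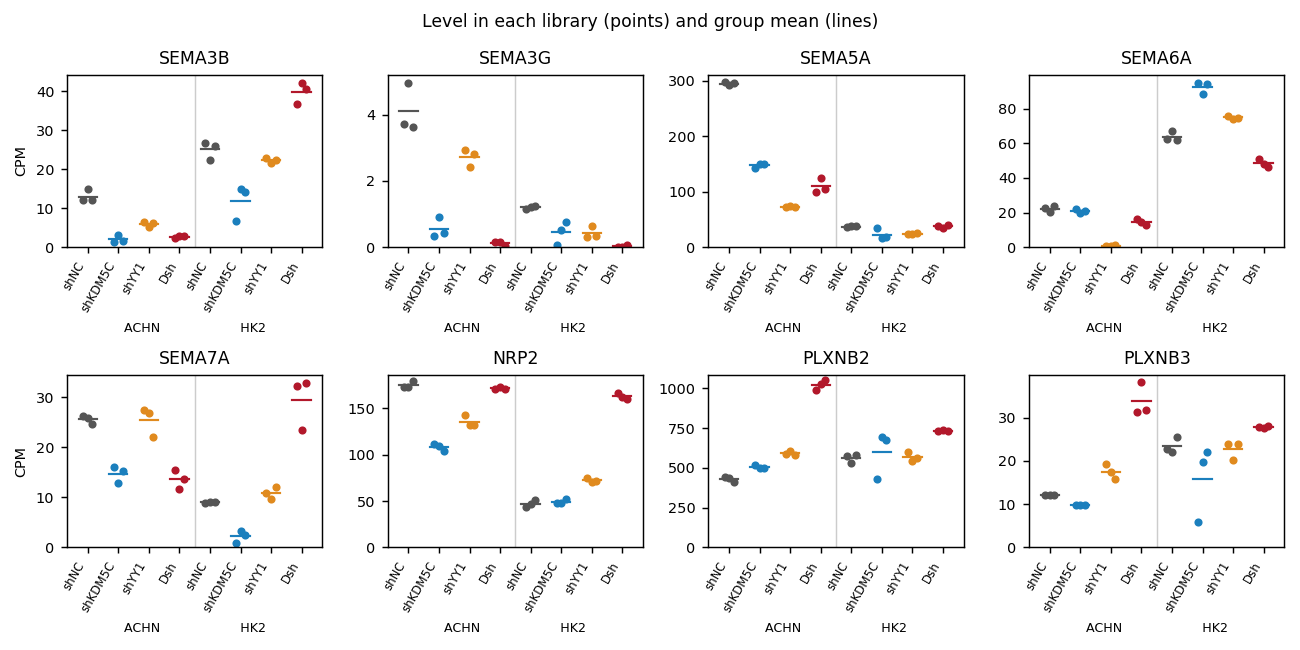
CPM (y axis, from 0) of 8 members in each of the 24 libraries, with a line at each group's mean; groups of ACHN stand left and those of HK2 right of the grey line. SEMA6A in ACHN shYY1 lay between 0.754 and 0.952 CPM, NRP2 in HK2 Dsh between 161 and 167 CPM, and SEMA3G in HK2 Dsh at or under 0.0567 CPM.

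Of the plexins, PLXNB2 (chr22:50274979-50307627, minus strand), which binds class 4 ligands, rose in every ACHN knockdown. It measured 445, 434 and 408 CPM in shNC, 515, 501 and 498 in shKDM5C, 584, 605 and 584 in shYY1 and 987, 1029 and 1052 in Dsh in ACHN cells, without overlap between shNC and any knockdown. In HK2 cells PLXNB2 measured 574, 533 and 583 CPM in shNC, 429.9, 695 and 676 in shKDM5C, 598, 544 and 561 in shYY1 and 734, 736 and 730.4 in Dsh, with Dsh above all others and shKDM5C replicate 1 lowest. Dsh changes were 1.26 (SE 0.045, adjusted p = 2.69e-14) and 0.38 (SE 0.039, adjusted p = 1.75e-09). PLXNB3, reported as a receptor of SEMA5A, measured 12.2, 12.03 and 12.1 CPM in shNC, 9.70, 9.78 and 9.80 in shKDM5C, 19.2, 17.5 and 15.9 in shYY1 and 31.4, 38.3 and 31.9 in Dsh in ACHN cells, where shKDM5C was below and shYY1 and Dsh were above shNC. Its HK2 values were 22.6, 22.1 and 25.5 CPM in shNC, 5.87, 19.8 and 22 in shKDM5C, 24, 20.3 and 23.9 in shYY1 and 27.8, 27.6 and 28.1 in Dsh. The ACHN Dsh change was 1.49 (SE 0.091, adjusted p = 7.30e-11), and 20.4% of its exon bases are shared with SRPK3 on the same strand, a gene with 652 counts over the 24 libraries against 9045 for PLXNB3.

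PLXND1, the SEMA3E receptor known from vessel growth, went up with YY1 knockdown in ACHN and down in HK2. ACHN cells measured 57.8, 57.01 and 57.3 CPM in shNC, 55.2, 53.3 and 56.7 in shKDM5C, 86.9, 94.7 and 92.7 in shYY1 and 60.1, 60.4 and 66.4 in Dsh, with shYY1 above every other library. For HK2 cells the values were 423, 378 and 388 CPM in shNC, 211, 339 and 344 in shKDM5C, 259, 236 and 222 in shYY1 and 378, 385 and 369 in Dsh, with shYY1 below shNC and Dsh near it. The shYY1 changes were 0.65 (SE 0.043, adjusted p = 1.26e-14) and -0.73 (SE 0.056, adjusted p = 1.77e-09), each within its line, and their difference was not tested. PLXNA2 had few reads: it measured 2.88, 2.48 and 2.49 CPM in shNC, 1.73, 1.69 and 2.45 in shKDM5C, 2.78, 3.07 and 3.36 in shYY1 and 0.772, 0.941 and 1.02 in Dsh in ACHN cells, with Dsh below all others, and at most 0.236 CPM in any HK2 library. Its change in ACHN Dsh was -1.50 (SE 0.26, adjusted p = 6.36e-05), and its difference between the lines rests on 1 read pair in HK2 shNC and 5 in HK2 Dsh. PLXNA1 rose with Dsh by 0.62 in ACHN and 0.33 in HK2, PLXNC1 by 0.57 and 0.70. PLXNA3 fell in ACHN Dsh (-0.33) and rose in HK2 Dsh (0.13), where it did not pass without shNC replicate 1, shNC replicate 3 or Dsh replicate 3, with total counts as scaling, or with all 4 groups in the fit. PLXNB1 was at -0.011 in ACHN Dsh, which did not pass, and fell in HK2 Dsh (-0.20).

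NRP2 (chr2:205681990-205798133, plus strand), the co-receptor for SEMA3F and SEMA3G that also binds VEGFC, fell in both single knockdowns of ACHN and rose in HK2 shYY1 and Dsh. The ACHN values were 173, 173 and 179 CPM in shNC, 111, 109.9 and 104 in shKDM5C, 143, 132 and 132 in shYY1 and 171, 173 and 171 in Dsh. Single knockdowns lay below shNC, and the Dsh range overlapped the shNC range. The changes were -0.71 (SE 0.037, adjusted p = 1.33e-14) in shKDM5C and -0.39 (SE 0.035, adjusted p = 2.15e-11) in shYY1, and -0.023 (SE 0.043) in Dsh, which did not pass. The HK2 values were 43.2, 47.2 and 51.7 CPM in shNC, 47.5, 48.2 and 52.1 in shKDM5C, 74.9, 70.9 and 71.9 in shYY1 and 167, 163 and 161 in Dsh, with Dsh far above all others and shYY1 above shNC. Here the Dsh change was 1.78 (SE 0.058, adjusted p = 2.46e-21). NRP1, the co-receptor for SEMA3A and VEGFA, went from 90.8 ± 1.42 to 145 ± 3.32 CPM in ACHN shKDM5C and from 98.6 ± 2.04 to 125 ± 3.09 CPM in HK2 Dsh (SD, n = 3). Its rise in ACHN Dsh was small, at 0.13 (SE 0.052, adjusted p = 0.0318), and was lost in 6 of 13 alternatives.

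Whether the double knockdown equalled the sum of the single ones on the log2 scale was tested with the 12 libraries of each line. In ACHN cells it did not for 24 of 26 members: Dsh was higher than the sum for 15 (background 26.8%) and lower for 9 (background 28.8%). SEMA6A departed most, at 4.17 (SE 0.19, adjusted p = 9.62e-16): its low level in shYY1 was not seen in Dsh. SEMA5A (1.61), SEMA3B (1.56), PLXNB3 (1.28), SEMA4B (1.16), SEMA6C (1.12) and NRP2 (1.05) were also above the sum. SEMA3G (-1.61), SEMA3F (-1.32) and PLXNA2 (-1.30) were below it, SEMA3G (adjusted p = 0.0305) no longer passing when shNC replicate 3, shKDM5C replicate 2 or Dsh replicate 3 was left out. In the same fit the 2 targeted genes departed from their sums as well, KDM5C at -0.42 and YY1 at 0.28, and their part in the members' values was not tested.

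In HK2 cells 11 of 28 members departed from the sum, 9 above it (background 5.21%) and 2 below it (background 4.4%). SEMA7A departed most, at 3.39 (SE 0.36, adjusted p = 0.000173), followed by SEMA3A (2.07), SEMA3B (1.90), SEMA5A (1.33), NRP2 (1.08), PLXND1 (1.05), PLXNA3 (0.77), SEMA3C (0.73) and SEMA3F (0.73). SEMA3E (-1.27) and SEMA6A (-1.21) were below. Without shKDM5C replicate 1, 15 were above (background 15%) and 3 below (background 13.7%), and SEMA7A stood at 3.09 (SE 0.23, adjusted p = 1.83e-11). The others named stood at 2.62 for SEMA3A, 1.65 for SEMA3B, 1.82 for SEMA5A, 1.11 for NRP2, 0.89 for PLXND1, 0.61 for PLXNA3, 0.92 for SEMA3C, 0.56 for SEMA3F, -1.31 for SEMA3E and -1.13 for SEMA6A. SEMA3G was below the sum at -3.14 (SE 1.19, adjusted p = 0.0483) without this library and at -2.70 (SE 1.25, adjusted p = 0.205) with it. All 11 that passed with this library also passed without it. Leaving out other single libraries left 6 to 14 members.

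**Figure D5:**
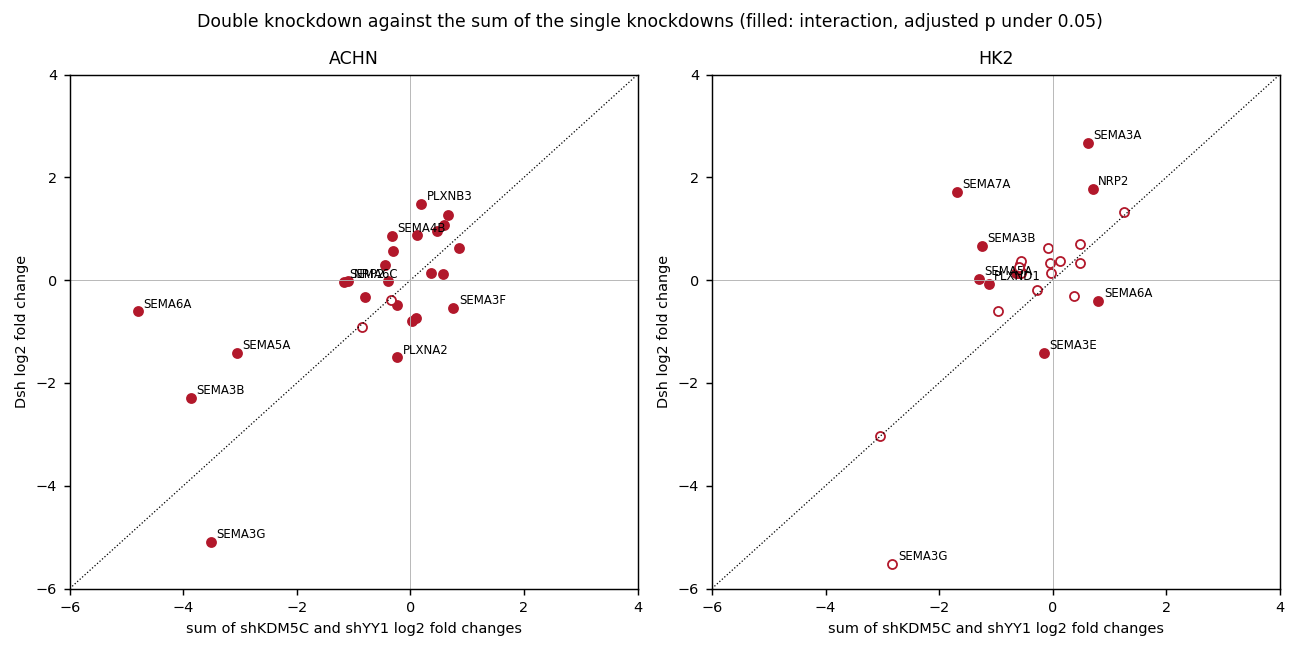
Log2 fold change of Dsh (y axis) against the sum of the shKDM5C and shYY1 log2 fold changes (x axis) for each member, ACHN left and HK2 right; the dotted line marks equality, filled points passed the interaction test, and members more than 1 away from the line are named. SEMA6A, SEMA5A and SEMA3B lie above the line in ACHN, SEMA7A, SEMA3A and SEMA3B above it in HK2, and SEMA3G below it in both, with the HK2 point open.

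Of 52 listed partner genes (processing enzymes, co-receptors, VEGF ligands, GTPases and their regulators, kinases, and the CRMP and MICAL effectors), 45 were tested in ACHN Dsh, of which 19 fell (background 32%) and 14 rose (background 30.7%). In HK2 Dsh 44 were tested, of which 11 fell (background 24.3%) and 17 rose (background 25.5%). In ACHN shKDM5C 23 of 45 fell (background 27.7%) and 13 rose (background 28.9%), and in ACHN shYY1 15 of 46 fell (background 24.5%) and 19 rose (background 24.2%). In HK2 shYY1 7 of 44 fell (background 14.7%) and 15 rose (background 14.3%). In HK2 shKDM5C edgeR called 0 of 45, where 5 had an unadjusted p under 0.05 and DESeq2 called 1, and without replicate 1 12 fell (background 10.9%) and 4 rose (background 11.5%). Nearest the members, VEGFC, a ligand of NRP2, rose with Dsh by 1.17 in ACHN and 0.77 in HK2. VEGFA, the main angiogenic factor and an NRP1 ligand, fell in ACHN Dsh (-0.61) and rose in HK2 Dsh (1.47). The integrin subunit ITGA1, a partner of SEMA7A, rose by 0.61 and 1.18. CD72, the lymphocyte receptor of SEMA4D, fell in ACHN Dsh (-2.04, SE 0.40), but its level was low, with a group mean of at most 1.21 CPM. Of the CRMP effectors, DPYSL5 fell, at -2.82 in ACHN and -0.17 in HK2, CRMP1 rose by 1.29 and 0.43, and DPYSL4 rose in HK2 Dsh (1.39). FARP2, an exchange factor bound to plexins, was lower in both, at -0.91 and -0.87.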

How the data were processed

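RNA-seq of 24 libraries, 8 groups of 3 named by their labels, was analysed. The authors extracted total RNA with TRIzol, made libraries with a NEBNext Ultra kit, aligned reads with HISAT2 2.0.5 and assigned read pairs to genes by featureCounts; the deposited values are raw counts. The file headers name featureCounts 2.0.1, paired mode without strand, on Ensembl release 84 of GRCh38, and the submitters' processing notes name 1.5.0-p3. Strand therefore did not part reads from exon bases that antisense genes share. How reads in bases shared by 2 genes were assigned was not examined.

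Counts were tested with edgeR 4.0.16 (R 4.3.3): filterByExpr, TMM factors, the quasi-likelihood F test, and Benjamini-Hochberg adjustment over all genes tested. A gene passed, and is said to rise or fall, at an adjusted p under 0.05. Standard errors came from the log2 fold change and F. Rows without a symbol held 0.243% of the counts. Same-numbered repeats did not deviate together (correlations of deviations from group means -0.17 to 0.063), so no pairing was used. An exact permutation test of 3 against 3 libraries cannot give a p below 0.1. Scripts were tested on simulated counts.

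The members and lists were chosen with earlier results of these data known. Values in each library are given for 18 members: those with a mean of at least 1 CPM in some group that passed with an absolute log2 value of at least 1 in a Dsh comparison or an interaction. The partner genes named are the 4 largest changes in Dsh of each line. Alternatives were DESeq2 1.42.0, other scalings, filters and fits, the replicate block, the study's fold threshold of 1.5 with an unadjusted p under 0.05, and leaving out each library. Promoter sequences are from RefSeq.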

Additional observations from a re-analysis of the deposited data

Results flagged for a closer look

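The effect of Dsh differed between ACHN and HK2 cells for 21 of 28 members tested. The test was edgeR's interaction of line and Dsh over 12 libraries, with an adjusted p under 0.05. The effect was lower in ACHN for 12 (background 22.7%) and higher for 9 (background 23.3%). As log2 differences, ACHN minus HK2, the lower ones were -3.56 for PLXNA2, -2.93 for SEMA3B, -2.60 for SEMA7A, -1.79 for NRP2, -1.58 for SEMA3A, -1.43 for SEMA5A, -1.09 for SEMA6B, -1.02 for SEMA4D, -0.65 for SEMA3F, -0.61 for SEMA4F, -0.45 for PLXNA3 and -0.18 for NRP1. The higher ones were 1.26 for PLXNB3, 0.90 for PLXNB2, 0.80 for SEMA3C, 0.65 for SEMA3E, 0.59 for SEMA4C, 0.31 for PLXNA1, 0.25 for SEMA4B, 0.22 for PLXND1 and 0.21 for PLXNB1. SEMA3B and SEMA7A fell in ACHN and rose in HK2. PLXNA2 rests on 6 read pairs in the HK2 libraries of this fit, and its difference did not pass when shNC replicate 1 or 3 or Dsh replicate 1 of HK2 was left out. Other members depended on the fit too, as 17 to 21 passed when each library was left out. Of the 9 higher ones, 6 passed without a filter on low counts. The same number passed without ACHN shNC replicate 2 or 3, ACHN Dsh replicate 3 or HK2 shNC replicate 1.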

How the results depend on the processing

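Of 180 member results that passed, 135 passed in every alternative counted, 45 lost the threshold in at least 1, and 0 reversed direction. Of 90 that did not pass, 27 passed in some alternative. These numbers leave out the study's fold threshold, which is given next. They also leave out any alternative in which the member was not tested or had no adjusted p. With the study's fold threshold of 1.5 (log2) and an unadjusted p under 0.05, the members called numbered 2, 2 and 3 in ACHN shKDM5C, shYY1 and Dsh and 1, 1 and 5 in HK2 shKDM5C, shYY1 and Dsh, of which the ACHN, HK2 shYY1 and HK2 Dsh ones also passed at an adjusted p under 0.05, so there the fold threshold leaves fewer by construction. The 1 in HK2 shKDM5C was SEMA7A, which did not pass the adjusted p. For HK2 shKDM5C, 2 members were called, against 5 with DESeq2, 1 with total counts as scaling, 4 without a filter on low counts, 5 with all 4 groups in the fit, 0 with the replicate block, and 0 to 15 when each library was left out, 15 being the value without shKDM5C replicate 1. All 4 groups in the fit gave 2 in HK2 shYY1 and 13 in HK2 Dsh; without shKDM5C replicate 1, an alternative chosen after seeing the data, that fit gave 14, 15 and 22 in HK2 shKDM5C, shYY1 and Dsh. The HK2 interaction gave 6 to 18 members when each library was left out, 18 without shKDM5C replicate 1, and 6 without shNC replicate 2 or 3, shYY1 replicate 1 or 3, or Dsh replicate 1 or 2, and 7 without shNC replicate 1 or shYY1 replicate 2; the cause was not tested. The replicate block left the counts of members unchanged in every other comparison, apart from the HK2 interaction (10 in place of 11). For the comparison of shNC cells the block within each line could not be fitted, because each number then marks a single library. Shares over all genes stand above for some of these fits and are not given for the others. The counts here therefore compare settings only. Depth limits SEMA3D, SEMA6D, PLXNA4, PLXNA2 in HK2 and SEMA5B and SEMA4A in ACHN.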
